A study of Mus musculus with 6 samples.

Results

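The 8 genes described here encode transcription factors that set liver and bile duct identity: Sox9, Hnf4a, Foxa1, Foxa2, Onecut1, Onecut2, Prox1 and Tbx3. They were chosen by name, with no measured value in the rule, but with earlier results of these data known. Of the 8, 7 had a row among the 28212 genes of the table, and Onecut1 was not analysed here. All 7 passed the filter on low counts, as did 17322 genes in all. The libraries came from LD-1, a mouse line of cholangiocarcinoma (cancer of the bile duct epithelium). One group of 3 libraries was stimulated with hepatocyte growth factor (HGF), a secreted protein that binds the receptor Met, and the other group of 3 was the control. Genotype, strain, HGF dose and exposure time are not stated in the labels, which call the material both this line and cholangiocarcinoma tissue, and whose protocol speaks of adipose RNA. No label ties the replicates of this single line to independent cultures, and p-values here reflect only how these libraries vary, possibly for technical reasons.

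Hepatocytes and cholangiocytes, the epithelial cells of bile ducts, arise from a shared embryonic progenitor, the hepatoblast. FOXA factors open liver chromatin, HNF4A drives the hepatocyte programme, and SOX9 marks the embryonic ductal plate and the mature duct, where Notch signalling acts upstream of it. ONECUT factors are needed for orderly duct formation, TBX3 supports hepatoblast growth, and PROX1 acts in hepatoblast migration and in hepatocytes.

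Totals per library ranged from 57073866 to 66302502 counts. Keratin genes of simple epithelia were abundant in all libraries, with Krt8 at an FPKM (fragments per length and library size) of 392 ± 6.39 (SD, n = 3) in controls. The duct keratin Krt7 was low at 0.0762 ± 0.0451. Control 3 stood apart from the other libraries. It had 44 genes at 4 counts or fewer that had at least 40 counts in each of the other 5 libraries, against 0 to 2 such genes for any other library. It also held 30614 counts over 10 skeletal muscle markers, where the others held 211 to 386. Results that rest on this library are given with and without it. In these bulk samples, fewer cells expressing a gene and less of its RNA per cell cannot be told apart.

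With HGF, 3 of the 7 factors rose, 1 fell and 3 did not pass the test. Sox9 rose 2.37-fold, Tbx3 1.44-fold and Foxa2 1.24-fold, while Onecut2 fell. Of all 17322 genes tested, 19.1% were higher and 19.3% lower with HGF (38.5% in either direction) by the same rule, a Benjamini-Hochberg adjusted p under 0.05 from edgeR, so calls were frequent in this comparison. The split differed between fits that also differ in filter and scaling: edgeR called 3316 genes higher and 3349 lower, and limma on log2(FPKM + 1) 2061 and 4244, with the same 3 factors higher in both. The median log2 fold change (HGF minus control) was 0.52 over the 7 factors and -0.02 over all tested genes. The 7 include Hnf4a and Prox1, which needed HGF libraries to pass the filter and did not pass the test. The median over the 7 is therefore a description only. Among 1129 tested genes that the table assigns to a transcription factor family, 17.2% were higher and 24.0% lower.

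**Figure D1:**
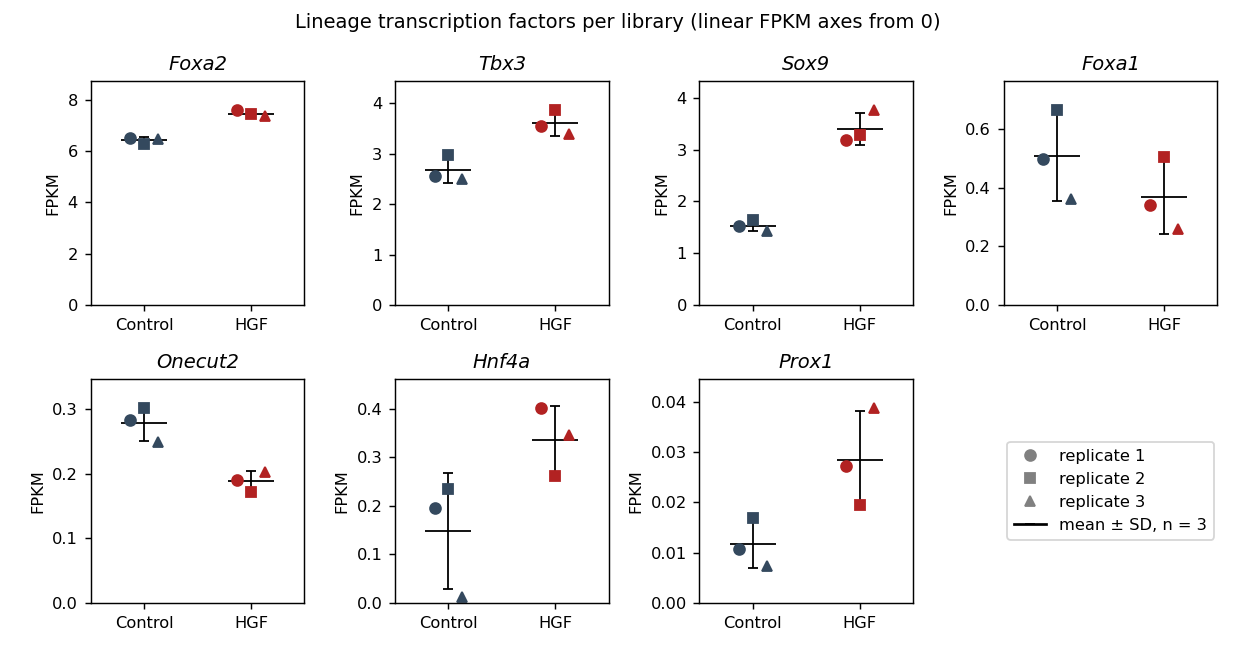
FPKM of each factor in each library, on linear axes from 0, with the mean and SD of 3 libraries per group. Sox9, Tbx3 and Foxa2 separate the groups with little spread, Foxa1 overlaps, and Hnf4a has a control library near 0.

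Sox9 (ENSMUSG00000000567, chromosome 11, 112782224 to 112787760, plus strand), the SRY-related factor of duct cells, had the largest fold change among the members that passed the test. Its FPKM was 3.18, 3.28 and 3.76 with HGF against 1.52, 1.64 and 1.43 without. Every HGF library lay well above every control, and the groups did not overlap. The counts were 942, 972 and 1134 against 461, 495 and 382. The log2 fold change was 1.25 ± 0.10 (SE, adjusted p = 3.52e-05), and 1.21 ± 0.11 without Control 3. A value at least this high was reached by 3.98% of all tested genes and by 15 of the 1129 transcription factor genes.

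Tbx3 (ENSMUSG00000018604, chromosome 5, 119670669 to 119684724, plus strand), a T-box repressor, reached an FPKM of 3.56, 3.86 and 3.39 with HGF against 2.56, 2.98 and 2.51 in controls. The groups did not overlap, with the highest control 0.41 below the lowest HGF library. Its log2 fold change was 0.52 ± 0.09 (adjusted p = 0.00165). The antisense gene Tbx3os1 overlaps its start and had 0 to 7 counts per library against 1074 to 1838 for Tbx3. Reads in the short stretch that the pair shares cannot be told apart without strand. Its paralog Tbx2, also a T-box repressor, fell, with an FPKM of 0.433 ± 0.0517 against 1.27 ± 0.00277 in controls (log2 fold change -1.45 ± 0.16, adjusted p = 1.64e-04).

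Foxa2 (ENSMUSG00000037025, chromosome 2, 148042877 to 148046969, minus strand), a pioneer factor of endoderm, was the most abundant of the 7 in both groups. Its FPKM was 7.59, 7.45 and 7.35 with HGF and 6.50, 6.27 and 6.46 in controls. The rise was small, but replicates were close and the groups did not overlap. The log2 fold change was 0.31 ± 0.07 (adjusted p = 0.00610). Foxa1 (ENSMUSG00000035451, chromosome 12, 57540628 to 57546916, minus strand), its closest relative, was measured at an FPKM of 0.340, 0.503 and 0.258 with HGF against 0.498, 0.664 and 0.360 in controls. The groups overlapped, and the log2 fold change of -0.37 ± 0.32 did not pass the test (adjusted p = 0.391). The FPKM of Foxa2 was 9.45 to 17.9 times that of Foxa1 in controls and 14.8 to 28.5 times in HGF libraries. The third member of the family, Foxa3, averaged an FPKM of 0.223 ± 0.0218 with HGF against 0.183 ± 0.0520 in controls, and did not pass the test (adjusted p = 0.484).

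Onecut2 (ENSMUSG00000045991), a cut-homeodomain factor that acts with Onecut1 in duct development, was the member that fell. Its FPKM was 0.191, 0.171 and 0.202 with HGF and 0.283, 0.302 and 0.248 in controls. Every HGF library lay below every control, at low levels in both groups. The counts were 222, 199 and 240 against 337, 357 and 260. The log2 fold change was -0.47 ± 0.14 (adjusted p = 0.0278). The call did not hold when any one of HGF 1, HGF 2, Control 1 or Control 2 was left out (adjusted p = 0.0582, 0.101, 0.0760 and 0.0969), and held without Control 3 (adjusted p = 0.0236). The paralog Onecut3 had 0 counts in every HGF library and 8, 0 and 22 in the controls.

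Hnf4a (ENSMUSG00000017950, chromosome 2, 163506808 to 163572905, plus strand), the nuclear receptor that drives hepatocyte genes, was low and uneven. Its counts were 139, 91 and 122 with HGF and 70, 83 and 4 in controls. Control 3 was near 0 while the other controls lay just below the lowest HGF library. The FPKM was 0.337 ± 0.0703 with HGF and 0.148 ± 0.119 in controls. The log2 fold change of 1.27 ± 0.69 did not pass the test (adjusted p = 0.182), and without Control 3 it was 0.74 ± 0.27 (adjusted p = 0.0686).

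In Control 3, where Hnf4a was near 0, kidney transcripts were also near 0. Besides liver, kidney tubule cells are known to express Hnf4a. A list of 13 kidney tubule markers was added after the gap in Control 3 had been seen, so its low sum there is no independent result, and it is given as values only. Its summed count was 4539 to 4874 in the HGF libraries, 4093 in Control 1, 4868 in Control 2 and 173 in Control 3. Kap, a kidney gene regulated by androgen, led it with 2312 to 2575 counts with HGF, 2131 and 2670 in Control 1 and Control 2, and 0 in Control 3. In Control 3, 6 of the 13 genes were at 0. For each 100 counts of the kidney markers there were 2.85, 2.0 and 2.64 Hnf4a counts with HGF against 1.71, 1.71 and 2.31 in controls, and the groups overlapped only through Control 3, whose value rests on 4 Hnf4a counts. Without Control 3, all HGF libraries lay above both controls. Hnf4a is itself among the 44 genes of the gap in Control 3. Whether kidney transcripts account for any of the Hnf4a difference was not tested.

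The summed hepatocyte markers, unlike the kidney markers, were lower in all 3 controls than in any HGF library. Of 32 tested, 23 rose with HGF and 0 fell (0 lower also at an unadjusted p under 0.05 and with DESeq2), where 19.1% of all genes were higher. The count is a description only. Of the 32, 10 had fewer than 10 counts in every control, and those passed the filter through the HGF libraries. Others reached 10 counts in only some controls, such as Apob (22, 33 and 0) and Hp (4, 23 and 0). Those also needed HGF libraries to pass. Alb, which encodes serum albumin, had 485, 559 and 1071 counts with HGF against 0, 29 and 12 in controls. Ahsg, the secreted glycoprotein fetuin-A, had 91, 152 and 145 counts against 6, 4 and 5. The fibrinogen chain genes Fgb and Fga had 75 to 139 and 98 to 154 counts with HGF, and in controls 0 in every library for Fgb and 4, 0 and 0 for Fga. The urea cycle gene Arg1 rose by log2 2.40 ± 0.19 (adjusted p = 3.52e-05). The summed count of the 35 markers in the table was 8025 to 9883 with HGF and 3866 to 6056 in controls, with Control 3 lowest and 20 of its 35 genes at 0. Of this sum, 3114 to 4412 counts per library came from Ass1, a urea cycle gene that did not pass the test (adjusted p = 0.311). For each 100 counts of the hepatocyte markers there were 1.73, 1.08 and 1.23 Hnf4a counts with HGF against 1.18, 1.37 and 0.103 in controls, and the groups overlapped with and without Control 3. The labels do not say how kidney, hepatocyte or muscle transcripts came to be in these libraries, so the values are not read as expression by LD-1 cells. Their part in the Hnf4a result was not tested.

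**Figure D2:**
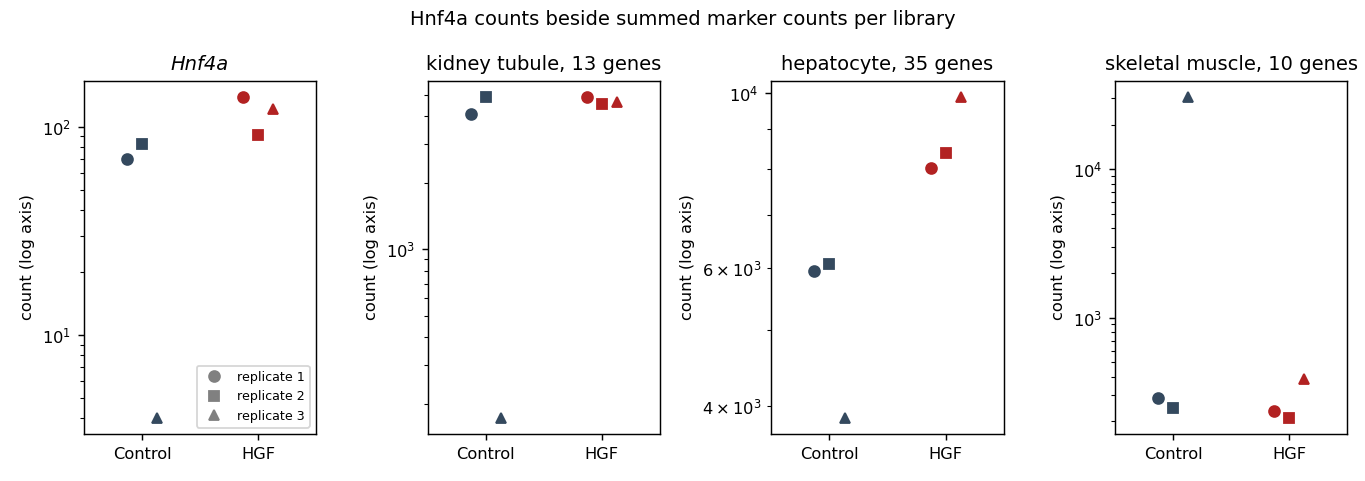
Counts of Hnf4a and summed counts of kidney tubule, hepatocyte and skeletal muscle markers in each library, on log axes. Control 3 (triangle) is lowest for Hnf4a, the kidney markers and the hepatocyte markers, and highest for muscle.

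The Hnf4a row spans both start sites of the gene but lists 1 transcript ID. Whether its single count covers transcripts from both starts is not known here. In the mouse the downstream promoter (P1) is used in adult liver and kidney and the upstream one (P2) in fetal liver and gut. Their RefSeq windows, on GRCm38.p6 and the plus strand, lie 40298 bases apart and run from 250 bases before the start to 50 after. Both are shown because the counts cannot tell them apart.
P2 (chr2:163506607-163506906): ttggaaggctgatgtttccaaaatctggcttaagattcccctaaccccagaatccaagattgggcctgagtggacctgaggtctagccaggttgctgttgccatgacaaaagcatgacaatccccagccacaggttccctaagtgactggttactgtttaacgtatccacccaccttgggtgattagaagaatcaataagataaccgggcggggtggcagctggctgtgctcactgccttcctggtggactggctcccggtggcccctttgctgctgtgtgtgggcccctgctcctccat
P1 (chr2:163546905-163547204): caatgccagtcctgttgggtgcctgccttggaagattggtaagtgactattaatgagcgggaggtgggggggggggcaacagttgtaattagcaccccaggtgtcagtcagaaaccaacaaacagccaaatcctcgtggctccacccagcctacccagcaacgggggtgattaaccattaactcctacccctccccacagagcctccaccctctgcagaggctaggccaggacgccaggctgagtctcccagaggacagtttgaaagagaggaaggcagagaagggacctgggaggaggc

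The windows of the FOXA pair are shown as the related promoters of an abundant and a scarce member. The Foxa1 window lies wholly inside its deposited row, which ends at 57546916, and the Foxa2 window spans its row's end at 148046969. Both are on the minus strand of GRCm38.p6, from RefSeq, and capitals mark a match to the forkhead motif TGTTTAC on either strand.
Foxa2 (chr2:148046920-148047219): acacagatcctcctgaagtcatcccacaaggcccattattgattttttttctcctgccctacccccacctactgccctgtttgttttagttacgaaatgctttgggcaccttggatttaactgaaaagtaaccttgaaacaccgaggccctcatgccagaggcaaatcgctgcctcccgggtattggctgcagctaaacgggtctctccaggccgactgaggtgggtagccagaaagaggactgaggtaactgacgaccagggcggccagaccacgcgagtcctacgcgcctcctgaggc
Foxa1 (chr12:57546062-57546361): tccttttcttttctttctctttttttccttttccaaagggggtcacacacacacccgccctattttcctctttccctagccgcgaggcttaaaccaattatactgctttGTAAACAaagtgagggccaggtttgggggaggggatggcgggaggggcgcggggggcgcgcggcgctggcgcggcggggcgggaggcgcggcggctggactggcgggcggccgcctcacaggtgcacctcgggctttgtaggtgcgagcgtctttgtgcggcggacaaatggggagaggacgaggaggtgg
Foxa1 held 1 match, on the opposite strand, and none of the 3 windows of Foxa2 held one. Of all 32851 promoter windows, 3.65% did. A match describes letters and shows no binding. Other motifs searched on both strands, with no overlap in these windows, were CAAAGTCCA (HNF4), ACAATGG (SOX), ATCGAT (ONECUT), TGANTCA (AP-1) and GTGGGAA (RBPJ), held by 0.475%, 3.66%, 0.925%, 7.81% and 6.38% of windows. None matched in the 9 windows of Hnf4a, Foxa1, Foxa2, Onecut1 and Prox1, and no match says only that these letters are not there. Sox9, Tbx3 and Onecut2 have no window shown.

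Prox1 (ENSMUSG00000010175, chromosome 1, 190118035 to 190170714, minus strand), a homeobox factor of hepatocytes and lymphatic endothelium, was near the limit of detection. Its counts were 17, 12 and 24 with HGF and 7, 11 and 4 in controls. The groups did not overlap, but by 1 count at the closest pair. The log2 fold change of 1.33 ± 0.62 did not pass the test (adjusted p = 0.126). Lymphatic markers were as low, with Flt4 at 0 to 6 counts and Lyve1 at 0 in 5 libraries and 8 in Control 3. The summed count of 10 endothelial and lymphatic markers was 233 to 374 with HGF and 217 to 373 in controls. Of the 5 that were tested, 0 were called in either direction by edgeR (1 higher at an unadjusted p under 0.05, and 1 with DESeq2), and without Control 3 1 was higher. Cdh5 and Pecam1, junction genes of endothelium, had log2 fold changes of 1.08 ± 0.42 and -0.29 ± 0.36.

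**Figure D3:**
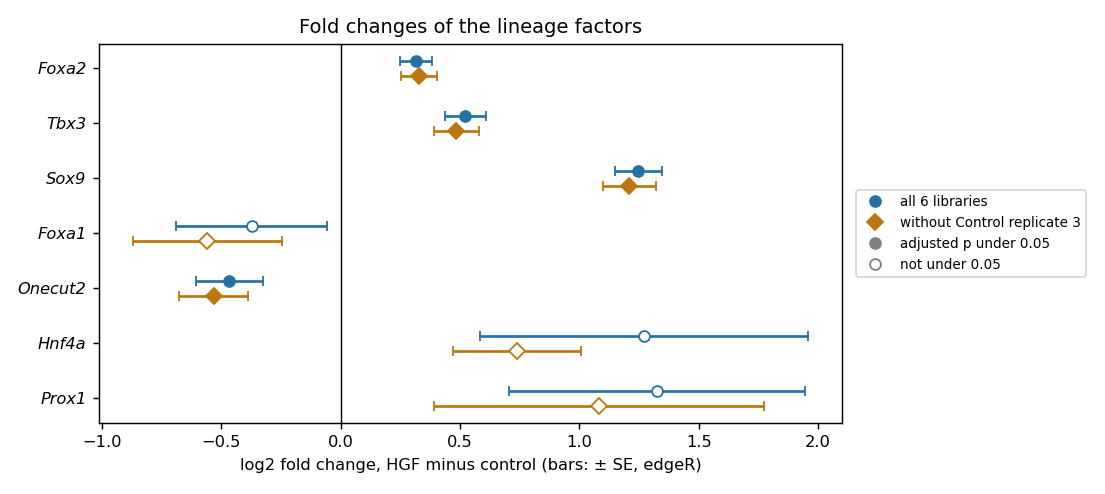
Log2 fold change (HGF minus control) of each factor with its SE from edgeR, with all 6 libraries and without Control 3, filled where adjusted p was under 0.05. Sox9, Tbx3, Foxa2 and Onecut2 keep their value, Hnf4a moves from 1.27 to 0.74, and the bars of Foxa1, Hnf4a and Prox1 are wide.

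The FPKM ranges of 6 of the 7 factors did not overlap between groups, 5 higher and 1 lower with HGF, where 18.6% of tested genes were higher and 34.9% lower in this way, 53.5% in all. The 5 include Hnf4a and Prox1, which did not pass the test. Both had fewer than 10 counts in Control 3 and needed HGF libraries to pass the filter. The groups of Prox1 were parted only by 12 counts against 11. In controls the factors ranked, by mean FPKM, Foxa2 (6.41), Tbx3 (2.68), Sox9 (1.53), Foxa1 (0.507), Onecut2 (0.278), Hnf4a (0.148) and Prox1 (0.0117). Neighbours in that order did not overlap except Hnf4a and Prox1, through Control 3. With HGF, Tbx3 (mean 3.60) and Sox9 (mean 3.40) overlapped, as did Foxa1 (0.367) and Hnf4a (0.337), which stood above Onecut2 (0.188). The FPKM ratio of Sox9 to Tbx3 was 0.552 to 0.595 in controls and 0.848 to 1.11 with HGF. Against all tested genes, the mean FPKM of Foxa2 lay at percentile 64.2, Tbx3 at 49.1 and Sox9 at 45.2, and that of Prox1 at 0.623.

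The genes whose log2 CPM over the 6 libraries was most like that of Sox9, among 6873 genes with a mean FPKM of at least 5, included Cnn3 (r = 0.9990) and Ddx21 (r = 0.9990). For Foxa2 they were Tead2 (r = 0.9999), Acot7 (r = 0.9993) and Actb (r = 0.9991). For Tbx3 they were Rpl30-ps8 (r = 0.998), Rpl30-ps1 (r = 0.993) and Arhgef19 (r = 0.989), and the first 2 are pseudogene rows that can share reads with Rpl30. The points are 2 groups of 3 libraries, so any difference between the groups enters every r.

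Around Sox9, regulators of bile duct development were more often called higher than lower. The list was chosen with earlier results of these data known, so its counts are a description only. Of 18 biliary transcription factors and their Notch and Hippo regulators, 11 rose, 1 fell and 6 did not pass the test, with a median log2 fold change of 0.31, where 19.1% of all genes rose and 19.3% fell. Without Control 3 the counts were 10 and 1, and with limma and no FPKM filter 7 were higher. The SOX factor gene Sox4, a partner of Sox9 in duct development, rose by log2 0.76 ± 0.10, with a mean FPKM of 5.88 ± 0.635 against 3.73 ± 0.388 (adjusted p = 5.65e-04). Grhl2, a factor for epithelial junctions, rose by log2 0.85 ± 0.09.

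Notch genes went in different directions. The ligand gene Jag1 rose by log2 0.94 ± 0.08 (adjusted p = 5.90e-05), Rbpj, the DNA-binding partner of Notch, by 0.57 ± 0.05 and the receptor gene Notch1 by 0.64 ± 0.07. Hes1, a repressor that Notch induces, fell by 1.45 on the log2 scale, to a mean FPKM of 14.4 ± 0.841 against 42.0 ± 3.55 in controls (adjusted p = 5.25e-06). Hey1, another Notch target, had a log2 fold change of -0.39 ± 0.21 and did not pass the test. Among Hippo pathway factors, Wwtr1, which encodes the coactivator TAZ, rose by 0.37 ± 0.04, and Yap1 did not pass the test (0.10 ± 0.04, adjusted p = 0.0822).

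Of 17 cholangiocyte markers tested, 6 rose and 0 fell by edgeR (8 and 0 at an unadjusted p under 0.05, 7 and 0 with DESeq2), where 19.1% of all genes rose and 19.3% fell. The 8 include Slc10a2, with 0, 7 and 0 counts in controls, which passed the filter through the HGF libraries. Krt19, a duct keratin, rose from a mean FPKM of 63.5 ± 2.30 to 165 ± 6.13, and the keratin pair Krt8 and Krt18 by log2 0.69 ± 0.04 and 0.88 ± 0.03. Spp1, which encodes osteopontin, rose by 1.52 ± 0.09. Aqp1, a water channel gene, averaged 3.95 ± 0.168 with HGF against 1.05 ± 0.257. Low members, among them Krt7 (0.0830 ± 0.0229 with HGF) and Cftr (0.0961 ± 0.0163), did not pass the test. Of the 20 markers in the table, 8 were at 0 in Control 3, and without that library 5 rose and 0 fell.

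Of 11 hepatocyte transcription factors tested, 2 rose and 1 fell, and 4 others were under the filter. At 18.2% higher and 9.09% lower, against 19.1% and 19.3% of all genes, this is no result about the list. Rxra, a nuclear receptor partner, rose slightly, to a mean FPKM of 8.28 ± 0.393 from 7.42 ± 0.293 (log2 fold change 0.25 ± 0.06, adjusted p = 0.00976). Zbtb20, a zinc finger factor of liver, rose by 0.35 ± 0.10 and Nr1h3, which encodes the sterol receptor LXR-alpha, fell by 0.96 on the log2 scale (0.199 ± 0.0503 against 0.409 ± 0.0518 FPKM). Each of these calls was lost in some alternatives. Nr1h3 was not called when any 1 of the 6 libraries was left out (adjusted p = 0.0624 to 0.133) or with DESeq2 (0.0559), Zbtb20 without any 1 of HGF 1, HGF 3, Control 1 or Control 3 (0.0519 to 0.0601), and Rxra in any limma fit (0.0564 to 0.0936). Without Control 3, 1 rose and 0 fell. Cebpa and Nr1h4, which encodes the bile acid receptor FXR, had log2 fold changes of 0.01 ± 0.16 and 0.04 ± 0.08.

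Of 7 endoderm and liver bud factors, 0 rose and 1, Tbx2, fell by edgeR (1 and 2 at an unadjusted p under 0.05, 0 and 1 with DESeq2). With 19.1% of all genes higher and 19.3% lower, counts over so few genes are no result about the list. Hhex and Gata6, factors of the liver bud, had log2 fold changes of 0.09 ± 0.09 and 0.07 ± 0.08. Of the 9 closest paralogs listed for the 8 factors, 3 were tested. Only Tbx2 was called, where 38.5% of all genes were called in either direction. Prox2, the paralog of Prox1, averaged 0.823 ± 0.240 FPKM with HGF against 1.12 ± 0.143 and did not pass the test.

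**Figure D4:**
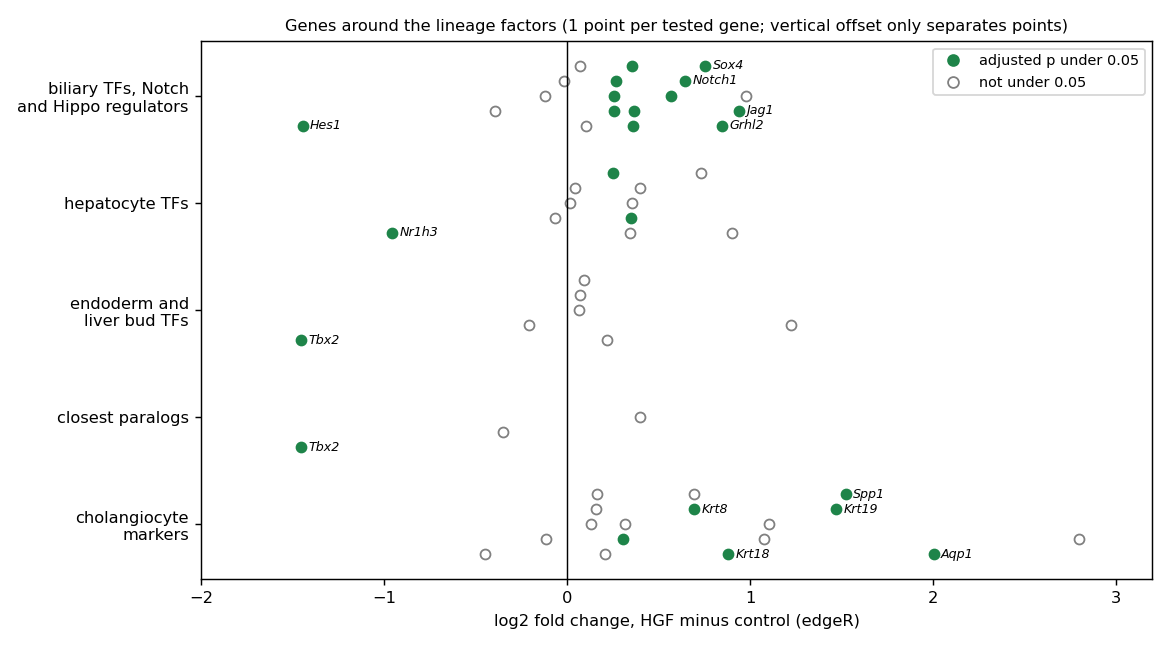
Log2 fold change (HGF minus control, edgeR) of every tested gene in 5 lists, filled where adjusted p was under 0.05, with names for called genes beyond 0.6 in size. Most biliary regulators lie to the right of 0, Hes1 and Tbx2 lie far to the left, and hepatocyte and endoderm factors lie on both sides.

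SOX9 is also the master factor of cartilage, and genes of that programme were low here. Of 5 cartilage targets and partners tested, 0 rose and 2 fell by edgeR (1 and 2 at an unadjusted p under 0.05, 1 and 2 with DESeq2), where 19.3% of all genes fell, so a share of so few genes says little. Col11a2, a minor cartilage collagen gene, averaged 0.0637 ± 0.0299 FPKM with HGF against 0.354 ± 0.0525 (adjusted p = 6.59e-04), and Col9a3, another, 0.149 ± 0.0556 against 0.439 ± 0.0991. Col2a1, the main cartilage collagen, had counts of 109, 110 and 222 with HGF and 68, 154 and 17 in controls, so the groups overlapped. Acan, the cartilage proteoglycan gene, had 0 counts in 4 of the 6 libraries.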

How the data were processed

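Poly(A) RNA of 6 libraries was sequenced as read pairs, per the labels' protocols. The deposited counts are whole numbers per gene, and the deposited FPKM are the authors' values scaled by length and library size. Tools listed in the submitters' processing notes are HISAT2 2.0, Bowtie 0.12.2 and StringTie 1.3.0, and the build listed is mm8. Of 28133 gene IDs shared with GENCODE M21 (GRCm38), 86.8% carry its coordinates exactly, as do 6 of the 7 members (not Hnf4a), so coordinates are printed as deposited. Use of strand is not given in the sources used here.

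Groups came from sample titles. After edgeR's filterByExpr and TMM scaling (factors 0.963 to 1.04), its two-sided quasi-likelihood test was run (edgeR 4.0.16, R 4.3.3), and p-values were adjusted over all genes that passed. SE is the size of the log2 fold change over the root of F. DESeq2 1.42.0 and limma 3.58.1 on log2(FPKM + 1), needing an FPKM of 1 in 3 libraries, were among 14 alternatives. FPKM lacks TMM scaling. A count of 4 was commoner (a mean of 1108.5 genes per library) than 3 (527.33) or 5 (306), so 4 counts may be 1 read pair.

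Members and lists were chosen with earlier results of these data known. Named from each list were up to 4 called genes with the smallest p, or 2 with the highest FPKM where none passed; muscle and macrophage markers are given in part. Kap, Tbx3os1, Sox4, Notch1, Hey1, Wwtr1, Yap1, Krt7, Cftr, Aqp1, Cd24a, Slc4a2, Epcam, Cebpa, Nr1h4, Hhex, Gata6, Foxa3, Prox2, Onecut3, Alb, Ass1, Col2a1, Acan, Flt4 and Lyve1 were named after their values were seen. Some genes that the rule or lists name are not reported here.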

Additional observations from a re-analysis of the deposited data

How the results depend on the processing

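Sox9, Tbx3 and Foxa2 were called higher in all 14 alternatives, and no member changed sign in any alternative that tested it. Members called lower numbered 1 in the reported fit (Onecut2) and 0 with no low-count filter, with each limma fit (2 of which did not test it) and with the replicate block. Onecut2 had an adjusted p of 0.0535 with no low-count filter and 0.0512 with the replicate block. Leaving out 1 library gave 0 to 1. Same-numbered HGF and control libraries did not deviate together (r = 0.06, -0.03 and 0.04), so the numbers were not taken as pairs, and the replicate block gave 3406 genes higher and 3440 lower against 3316 and 3349. Genes called higher fell to 2061 with limma on log2(FPKM + 1), 2050 with log2(FPKM + 0.1) and 2065 with no FPKM filter, while 4244, 4215 and 3841 were lower. On the filtered log2(FPKM + 0.1) scale the median of all tested genes was -0.11, against -0.02 with TMM, and Rxra missed the threshold in each limma fit (adjusted p = 0.0564 to 0.0936). Nr1h3 missed it with DESeq2, the block, no filter and each library left out, and Zbtb20 without HGF 1, HGF 3, Control 1 or Control 3 and with no FPKM filter. Of the biliary list, 7 genes were higher with limma and no FPKM filter, against 11. Counts were low for Hnf4a, Foxa1 and Prox1, whether this cost them a call was not tested, and Prox1 was not fitted with counts divided by 4. The log2 fold change of Actn3, -4.59 in the reported fit, ranged from -5.16 (without Control 1) to 0.11 (without Control 3) when 1 library was left out.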

Other observations

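Macrophage markers also differed in Control 3. Their summed count over 11 genes was 12662 there, 7540 to 8237 in the HGF libraries and 5037 and 5616 in Control 1 and Control 2. Of 8 tested, 2 rose and 1 fell with HGF by edgeR, where 19.1% of all genes rose and 19.3% fell. Without Control 3, 4 rose and 0 fell (no DESeq2 fit was run without that library). In that fit, 3053 of all 17961 tested genes rose and 2868 fell. Counts over so few genes are no result about the list. Cd68, a lysosomal glycoprotein gene that other cells also express, averaged 48.0 ± 1.56 FPKM with HGF against 27.6 ± 1.27, and Cd14, a lipopolysaccharide co-receptor, 10.7 ± 0.684 against 7.37 ± 0.904. The complement gene C1qc had 15, 0 and 8 counts with HGF against 21, 22 and 487 in controls, and was not called without Control 3 (adjusted p = 0.376). Of 4 skeletal muscle markers tested, only Actn3, a muscle actinin, was called lower, where 19.3% of all genes fell. Actn3 had 17 to 37 counts with HGF against 21, 32 and 1760 in controls. Without Control 3 its log2 fold change was 0.11 (adjusted p = 0.898).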
